A study of Mus musculus with 2 samples.

Results

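The MHC class II presentation genes described here are 10 genes: H2-Aa, H2-Ab1, H2-Eb1, H2-DMa, Cd74, Ciita, Ctss, Cd86, Lgmn and Ifi30. They were taken by name, with every probe set that the platform annotation assigns to 1 of them alone, which gave 19 probe sets out of 34945 that name a single gene, and 10 genes out of 18193. Signals were compared between 2 arrays of cells labelled as uterine epithelium, taken on day 4 of pregnancy from C57BL/6 mice, when the uterus becomes receptive to the embryo. The control array holds cells of mice with floxed Msx1 and Msx2 (Msx1Msx2 Floxed Control). The other holds cells of Msx1Msx2-null mice, in which Cre recombinase made from the progesterone receptor locus (PRcre) removed both homeobox genes in cells that express that receptor, stroma and muscle of the uterus included. The labels give 5 mice for each genotype but do not say whether their RNA was pooled, and the extraction text speaks instead of stromal cells from 4 mice. With 1 array for each genotype there are no replicates, no difference has a test, and all differences are those between these 2 arrays.

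Class II molecules carry peptides from endosomes to the cell surface, where CD4+ T cells read them. An alpha and a beta chain pair in the endoplasmic reticulum with the invariant chain, which blocks the groove; endosomal proteases trim that chain, and H2-DM exchanges its last fragment for a peptide. Ciita, the class II transactivator, binds no DNA itself and works through factors sitting on the X and Y boxes of these promoters. Macrophages, dendritic cells and B cells express the pathway as a rule, and epithelial cells can acquire it under interferon-gamma.

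The promoters of H2-Aa and H2-Eb1, an alpha and a beta chain gene that were both higher on the null array, are shown because the boxes through which Ciita acts can be read in them. Of the 10 genes, 6 were read gene by gene in the RefSeq promoter sequences (build GRCm38.p6): H2-Aa, H2-Eb1, H2-DMa, Ctss, Lgmn and Ifi30. H2-Ab1, Ciita and Cd86 had no entry there, and the promoter of Cd74 was left out of this reading. The 120 bases before the annotated start lie at chr17:34287824-34287943 on the minus strand for H2-Aa and at chr17:34305747-34305866 on the plus strand for H2-Eb1, and they read 5′ to 3′ along the gene as follows, with the motif matches in capitals.
H2-Aa: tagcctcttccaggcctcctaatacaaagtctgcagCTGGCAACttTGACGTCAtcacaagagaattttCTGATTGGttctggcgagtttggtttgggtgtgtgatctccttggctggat
H2-Eb1: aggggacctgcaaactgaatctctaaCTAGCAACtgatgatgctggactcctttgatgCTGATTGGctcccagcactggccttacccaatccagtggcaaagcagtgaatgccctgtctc
In both promoters the X1 box core CTNGNAAC came first and the Y box core CTGATTGG followed. The X1 core began 84 bases before the start in H2-Aa and 94 in H2-Eb1, the Y core 51 and 62 bases before it, and 25 and 24 bases lay between them. H2-Aa also held the cyclic AMP response element TGACGTCA between the boxes, 2 bases after the X1 core. Over all 32851 RefSeq promoter windows of 300 bases, on either strand, 4.10% held the Y core, 13.2% the X1 core and 1.79% the TGACGTCA element. Both cores in this order on the gene strand, at most 40 bases apart, were found in 9 windows (0.0274%) of 8 genes. Of the 10 genes described here, only H2-Aa and H2-Eb1 were among these 8, though H2-Ab1, Ciita and Cd86 had no window. The motif letters had been chosen with the promoters of H2-Aa and H2-Eb1 in view. Of the other 6 genes, 5 were measured, with log2 differences between -0.12 and 1.53. The windows of H2-DMa, Ctss, Lgmn and Ifi30 held none of these motifs on either strand.

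Of the 10 genes, 9 reached the signal floor on at least 1 array, and 8 did so on both. The floor, 21.1, is the median signal of all non-control probe sets over both arrays; lower values were set to it, and a fold against such a value is a lower bound. At least 2-fold higher in the null were 5 of the 9 measured genes, H2-Aa, H2-Ab1, H2-Eb1, H2-DMa and Cd74, beside 7.73% of all 11662 measured genes. None was at least 2-fold lower, beside 4.75% of all measured genes. The median log2 difference (null minus control) was 1.32 for the 9 genes and 0.08 for all measured genes. Within the 10 genes, those that build and load the class II molecule were higher by 2.50-fold to 4.40-fold. The lysosomal enzymes among them, which prepare its peptides, lay between 1.90-fold lower and 1.40-fold higher. Outside the 10 genes this grouping did not hold throughout: the loading gene H2-DMb2 was not higher, and the lysosomal protease gene Ctsl was 2.97-fold higher. By probe set, 13 of the 19 were measured, and 9 of these were higher by 2-fold or more and none lower by as much, beside 6.25% and 6.49% of all measured probe sets that name 1 gene.

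**Figure D1:**
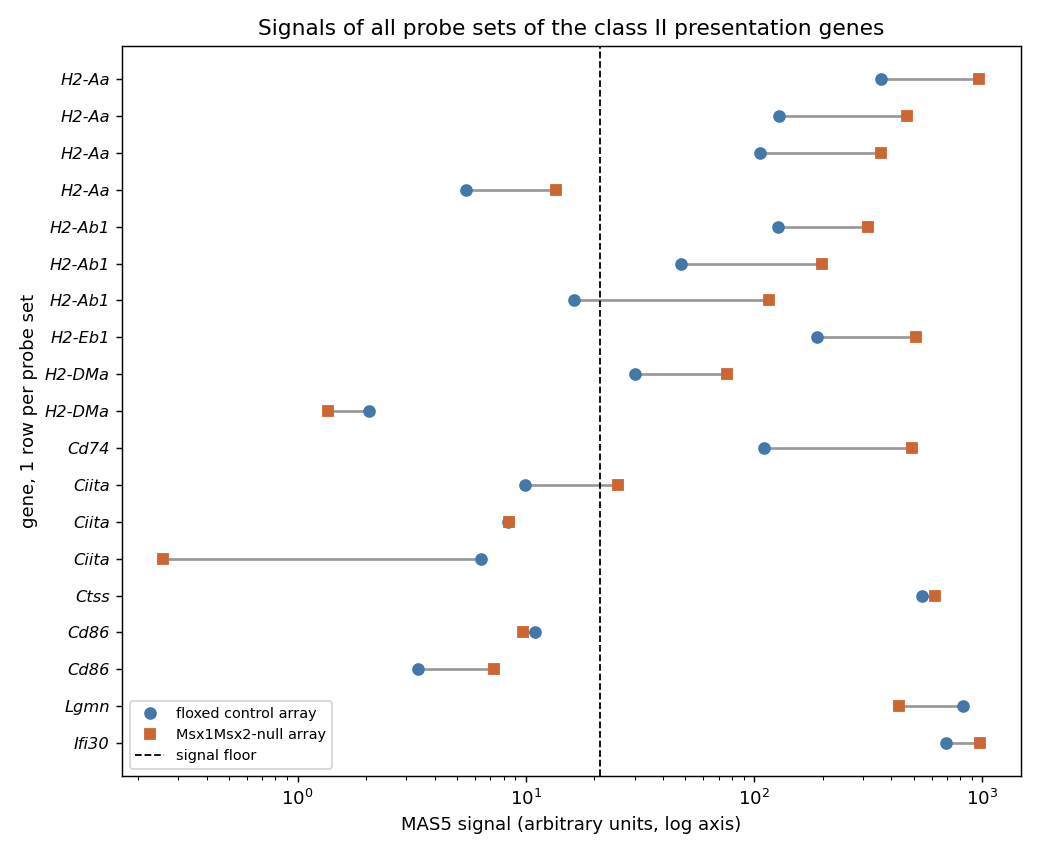
MAS5 signal of each of the 19 probe sets (rows, labelled by gene) on the floxed control array (circles) and the Msx1Msx2-null array (squares), on a log axis, with the signal floor of 21.1 dashed. The measured probe sets of H2-Aa, H2-Ab1, H2-Eb1, H2-DMa and Cd74 all lie further right on the null array, Lgmn lies further left, and both probe sets of Cd86 lie below the floor.

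The chains of the class II molecule were higher on the null array by every probe set that measured them. H2-Aa encodes the alpha chain of the I-A molecule. Its brightest probe set gave a signal of 359 on the control array against 970 on the null array, 2.70-fold higher (log2 difference 1.43). The next probe set gave 128 and 468, 3.66-fold higher, and another 106 and 360, 3.39-fold higher. The last lay below the floor on both arrays, at 5.49 and 13.5. All 3 measured probe sets of H2-Aa therefore exceeded 2-fold, with log2 differences of 1.43, 1.87 and 1.76.

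H2-Ab1 encodes the beta chain that pairs with the product of H2-Aa. Its brightest probe set read 127 on the control array against 317 on the null array, 2.50-fold higher (log2 difference 1.32). The second read 47.8 and 199, 4.15-fold higher. The third was below the floor in the control, at 16.2, and at 116 in the null, so that it was at least 5.47-fold higher. The size for H2-Ab1 thus depends on the probe set, with log2 differences from 1.32 to 2.45, while the direction was shared by all 3. H2-Eb1 encodes the beta chain of the I-E molecule, and its only probe set read 189 on the control array against 514 on the null array, 2.73-fold higher (log2 difference 1.45). H2-Ea, the gene of its alpha chain partner, is listed by RefSeq as a transcribed pseudogene in the C57BL/6J assembly and was below the floor on both arrays, at 14.2 and 3.73 by its brightest probe set. The 3 chain genes differed by 1.32 to 1.45 on the log2 scale, a range narrower than the standard deviation of 0.38 between the log2 differences that several probe sets give for a single gene (4645 genes). That deviation gauges disagreement between probe sets and holds no spread between animals.

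Cd74, the invariant chain that guides class II molecules to endosomes, showed the largest difference among the 8 genes measured on both arrays, each by its brightest probe set; the dimmest measured probe set of H2-Ab1 exceeded it. Its probe set read 111 on the control array against 490 on the null array, 4.40-fold higher (log2 difference 2.14), at rank 117 from the highest among the 10529 genes measured on both arrays. H2-Eb1 stood at rank 337, H2-Aa at 344, H2-DMa at 398 and H2-Ab1 at 412 on the same scale. H2-DMa, the alpha chain of the peptide editor H2-DM, was dim: its brighter probe set read 30.1 on the control array against 76.4 on the null array, 2.54-fold higher (log2 difference 1.35), and its other probe set lay far below the floor at 2.06 and 1.36. With the floor at the 67th percentile of signals, 72.7, the difference of H2-DMa was 0.07. H2-DMb2, a gene for the beta chain of the same editor, read 25.6 on the control array against 19.4 on the null array, below the floor, and so did not go with H2-DMa by its brightest probe set.

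Many of these probe sets carry suffixes that mark shared, similar or alternative transcript sequence (_s_at, _x_at, _a_at), which is common among related histocompatibility genes. All probe sets of H2-Aa and H2-Ab1 and the only one of Cd74 are of this kind. Without such probe sets 6 of the 10 genes could be measured. Of these 6, H2-Eb1 and H2-DMa were at least 2-fold higher, beside 7.68% of all 10084 genes measured in that way.

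Ciita and Cd86 were too dim to give a size. Ciita, the transactivator on which constitutive and induced class II expression depends, read 9.90 on the control array against 25.4 on the null array by its brightest probe set, and so was at least 1.20-fold higher against the floor. Its other probe sets were below the floor on both arrays, at 8.39 and 8.41 for one and at 6.35 and 0.258 for the other. The 3 Ciita probe sets gave no shared direction. With the floor at the 33rd percentile, 8.62, the log2 difference of the brightest was 1.36, so the bound depends on the floor. Cd86, the costimulatory ligand of CD28, read 11.0 and 9.70 by one probe set and 3.38 and 7.26 by the other on the control and null arrays, all below the floor.

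The lysosomal enzymes were bright on both arrays and none reached 2-fold. Ctss, cathepsin S, which makes the late cuts in the invariant chain in antigen-presenting cells, read 547 on the control array against 620 on the null array, a log2 difference of 0.18 that turned to -0.11 when the arrays were scaled to their spike-in controls. Ifi30, the thiol reductase GILT, which opens disulphide bonds of antigens, read 696 and 974, 1.40-fold higher (log2 difference 0.48). Lgmn, legumain or asparagine endopeptidase, went the other way: its signal was 822 on the control array against 432 on the null array, 1.90-fold lower (log2 difference -0.93), at rank 573 from the lowest of 10529 genes. Under spike-in scaling the log2 difference of Lgmn was -1.22, past 2-fold. Each enzyme had 1 probe set that named it alone; a further probe set shared by Ifi30 and Pik3r2 was left out.

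Other genes of the class II pathway were mostly near the level of the control. The list held H2-DMb1, H2-DMb2, H2-Oa, H2-Ob, H2-Eb2, H2-Ea, the cathepsins Ctsb, Ctsd, Ctsh, Ctsl and Ctsz, Cst3, the ubiquitin ligases Marchf1 and Marchf8, Cd40, Cd80 and Cd83. Of 17 genes, 16 had a probe set of their own and 10 were measured. Of these 10, 2 were higher by 2-fold or more and none lower by as much, beside 7.73% and 4.75% of all measured genes. Their median log2 difference was 0.13, beside 0.08 for all measured genes. Ctsl, cathepsin L, which trims the invariant chain in thymic epithelium, was 2.97-fold higher, from 1093 to 3241. Cst3, cystatin C, an inhibitor of cysteine cathepsins, was 2.39-fold higher, from 577 to 1381. Cd83, a surface protein of mature dendritic cells that stabilises class II molecules, had a log2 difference of 0.70 (36.8 and 59.6), and Ctsb, cathepsin B, one of -0.29 (7671 and 6264). With probe sets marked as shared or alternative left out, 5 genes of the list could be measured and none was past 2-fold. Ctsl and Cst3 had been read from such probe sets, so that count is no check of their readings.

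Among the measured factors that act on class II promoters, and the interferon-gamma route that induces Ciita, no gene reached 2-fold in either direction. Of all measured genes 7.73% were at least 2-fold higher and 4.75% at least 2-fold lower. For a list of 14 measured genes a count of 0 lies near those shares. Of 16 listed genes (among them the Rfx5, Rfxap and Rfxank subunits of the X box factor, Nfya, Nfyb and Nfyc of the Y box factor, Creb1, and Ifng, its receptor chains, Jak1, Jak2, Irf1, Irf2 and Socs1), 14 were measured, with a median log2 difference of -0.16. Irf1, a transcription factor induced by interferon-gamma, read 277 on the control array against 412 on the null array (log2 0.57), and the receptor chain Ifngr1 120 and 170 (log2 0.50). Creb1, which binds the X2 box, read 464 and 294 (log2 -0.66), and the kinase Jak1 922 and 679 (log2 -0.44). Ifng itself was below the floor on both arrays.

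Class I presentation genes, which show peptides from the cytosol, were on the higher side as well. Of 15 listed genes 14 were measured, and 3 of these were higher by 2-fold or more and none lower by as much, beside 7.73% and 4.75% of all measured genes; their median was 0.63. All 14 had a log2 difference above 0, beside 57.0% of all measured genes. With the arrays set to their spike-in controls 10 of the 14 lay above 0, beside 34.4% of all, and 1 reached 2-fold. Nlrc5, the transactivator of class I genes, read 37.0 on the control array against 112 on the null array, 3.04-fold higher. Psmb9, a subunit of the immunoproteasome, was 2.44-fold higher (270 and 661), the heavy chain gene H2-K1 2.09-fold higher (3794 and 7927) and H2-D1 1.80-fold higher (3699 and 6654). The class I probe sets of H2-K1 and H2-D1 are also of the kind that can cross-hybridise. Whether the class I and class II lists differ in size could not be tested with 1 array for each genotype.

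**Figure D2:**
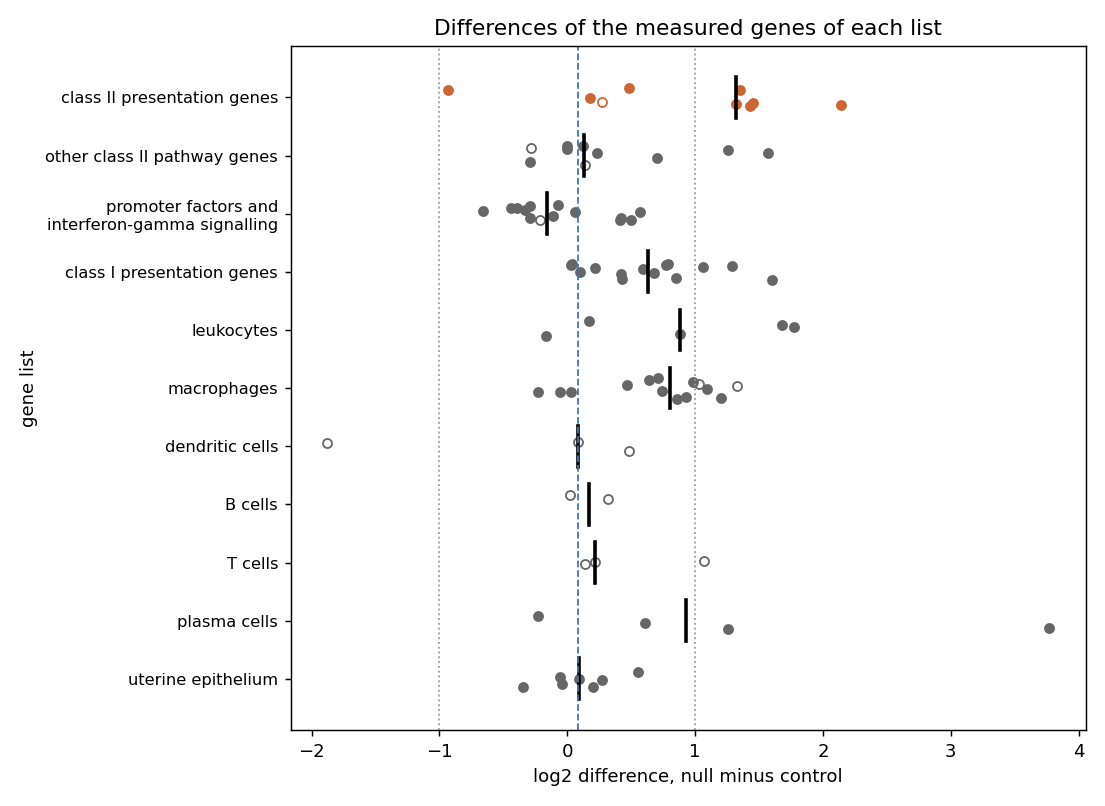
Log2 difference (null minus control) of each measured gene of the class II presentation genes (top row), of related gene lists and of cell type marker lists; filled points reached the floor on each array, open points are bounds from 1 array, black bars are list medians. Dotted lines mark 2-fold and the dashed line the median of all measured genes, 0.08; the class II presentation genes fall into 5 genes above 2-fold and 4 below it, with a median of 1.32.

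Along the class II region of chromosome 17 the higher genes stood beside genes that were not higher or that lay below the floor, where no direction was measured. RefSeq lists 15 protein-coding genes or transcribed pseudogenes from H2-Oa to H2-Ea, of which 14 had a probe set and 10 were measured. H2-Ab1, H2-Aa and H2-Eb1 follow one another, and all were at least 2-fold higher. Their neighbours H2-Ob on one side and H2-Eb2 on the other were below the floor on both arrays. H2-DMa lies between Brd2, a chromatin reader at -0.01, and the DM beta chain genes. Between the DM genes and H2-Ob lie the class I genes Psmb9, Tap1, Psmb8 and Tap2, at 1.29, 0.59, 0.68 and 0.22 on the log2 scale. Of the 5 genes of the region outside the class II lists, 1 (Psmb9) was at least 2-fold higher, and their median was 0.59.

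**Figure D3:**
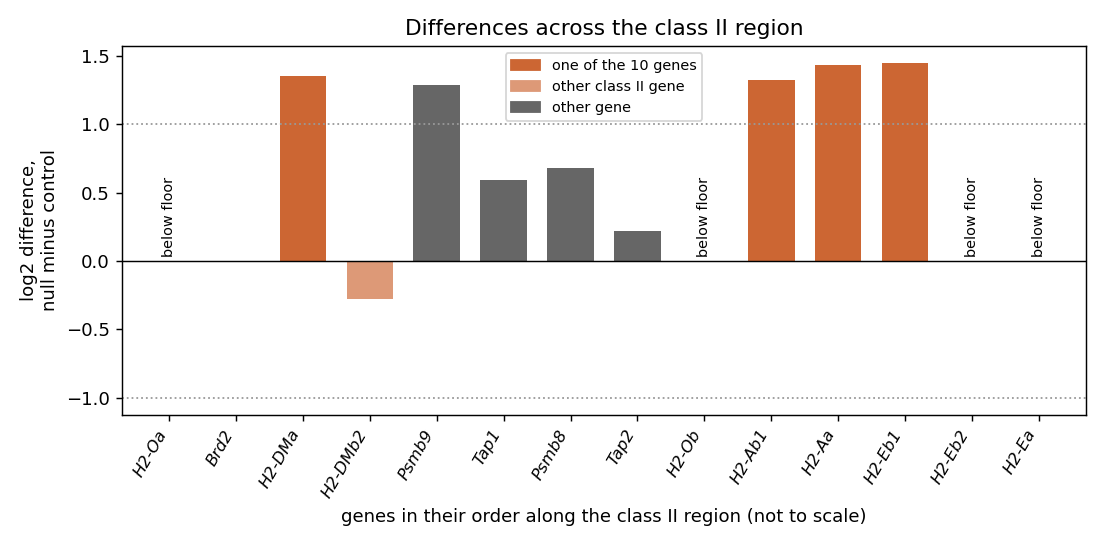
Log2 difference (null minus control) of the 14 genes with a probe set in the class II region, in their order along the chromosome and not to scale; dotted lines mark 2-fold, and genes below the floor on both arrays have no bar. H2-DMa, H2-Ab1, H2-Aa and H2-Eb1 lie between 1.32 and 1.45, above every other measured gene of the region, though Psmb9 follows closely at 1.29.

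Markers of cells that express class II as a rule moved with the result in part. In a bulk sample fewer cells of a type and less RNA per cell cannot be told apart. The epithelial markers were bright on both arrays: Epcam read 5201 and 5000 and Krt8 6337 and 7296. None of 7 epithelial markers reached 2-fold (summed signal 34679 on the control array against 37978 on the null array). Some stromal markers were bright too, among them Dcn (4213 and 3877) and Col3a1 (2158 and 3164). Others were dim, among them Pdgfra (74.8 and 98.4) and Hand2 (40.4 and 62.3). The arrays thus held stromal signal besides the epithelial signal that the label names. Leukocyte markers gave signal on both arrays. Of 5 general leukocyte markers 2 were higher by 2-fold or more in the null and none lower by as much, and their summed signal was 540 and 1131. Coro1a (log2 1.77) and Cd52 (log2 1.68) lay between Cd74 and the class II chains in size, each gene by its brightest probe set. The other markers of the list did not: Cd53 read 45.4 and 83.2 (log2 0.88). Ptprc, the gene of the common leukocyte antigen CD45, read 111 and 125, and Laptm5, in the other direction, 136 and 120 (log2 -0.17).

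Of 15 macrophage markers 14 were measured, at a median log2 difference of 0.80. Of these, 4 were higher by 2-fold or more and none lower by as much, beside 7.73% and 4.75% of all measured genes. The summed signal of the macrophage list was 5686 on the control array against 6532 on the null array, most of it from Cd14. Without Cd14, which was left out after its value was seen, the sum was 1425 and 2446, a ratio of 1.72. Of the defining markers, Csf1r, the receptor for colony-stimulating factor 1, was 1.81-fold higher (220 and 399), and Adgre1, a classic macrophage surface antigen, read 58.3 and 59.3. The macrophage markers past 2-fold were the complement genes C1qa (84.8 and 180, 2.13-fold) and C1qc (49.2 and 113, 2.30-fold), Fcgr1 (18.4 and 43.3, at least 2.05-fold) and Aif1 (11.1 and 53.3, at least 2.52-fold), and C1qb was 1.98-fold higher. Fcgr1 and Aif1 lay below the floor in the control, so their sizes cannot be set against those of the class II genes.

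Few markers of dendritic cells, B cells and T cells were measured, and none of them on both arrays. Except for Zbtb46, all of those with a probe set lay below the floor on the control array, so their summed signals give no size. Of 9 dendritic cell markers 3 were measured; the summed signal was 137 on the control array against 106 on the null array, Flt3 read 1.28 and 5.07, and Itgax read 14.3 and 29.4. Zbtb46 was the 1 dendritic marker past 2-fold, at 77.7 and 20.1, at least 3.68-fold lower. Without it, a choice made after its value was seen, the sum was 59.4 and 86.3, with every control value in it below the floor. Of 6 B cell markers 2 were measured, both on the null array only: Cd79b read 7.12 and 26.3 and Pax5 1.45 and 21.4. Cd79a was below the floor on both arrays, at 9.70 and 1.39, and the summed signal of the B cell list was 28.2 and 65.2. Of 6 T cell markers 3 were measured on the null array only, with summed signals of 57.9 and 103; Cd3g, at 12.0 and 44.4, was at least 2.10-fold higher, and Cd3e read 10.4 and 23.3. Of 5 plasma cell markers 4 were measured. Of these, 2 (Jchain and Sdc1) were higher by 2-fold or more and none lower by as much, beside 7.73% and 4.75% of all measured genes. The summed signal of the plasma cell list was 238 on the control array against 1254 on the null array, of which Jchain gave 71.5 and 978. The others did not share that size: Sdc1 read 75.9 and 182, Prdm1 25.6 and 39.0, and Mzb1, in the other direction, 63.5 and 54.0. Tnfrsf17 was below the floor on both arrays, at 1.23 and 1.28. Markers of cells that do not present antigen as a rule were read as well. Higher by 2-fold or more were 4 of 5 smooth muscle markers (summed signal 279 and 872), beside 7.73% of all measured genes. None of 8 stromal markers (9230 and 11501) or 4 endothelial markers (189 and 227) was. The part that these cells have in the class II differences was not tested.

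The targeted genes went with the labels. Msx1 read 3474 on the control array against 42.3 on the null array by the brighter of its probe sets, and Msx2, far dimmer, 63.4 and 23.6. Which exons were deleted is not given. The floor was reached by 50.4% of non-control probe sets in the control and by 49.6% in the null.

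The 5 higher genes kept their direction under every scaling that was tried, and their sizes shifted with it. Scaling to the spike-in controls moved the median of all measured genes from 0.08 to -0.20, and the share of higher genes among all genes past 2-fold from 62.0% to 35.3%. Under that scaling the log2 differences were 1.84 for Cd74, 1.16 for H2-Eb1, 1.14 for H2-Aa, 1.05 for H2-DMa and 1.03 for H2-Ab1, so that all 5 still reached 2-fold, beside 4.90% of all measured genes.

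**Figure D4:**
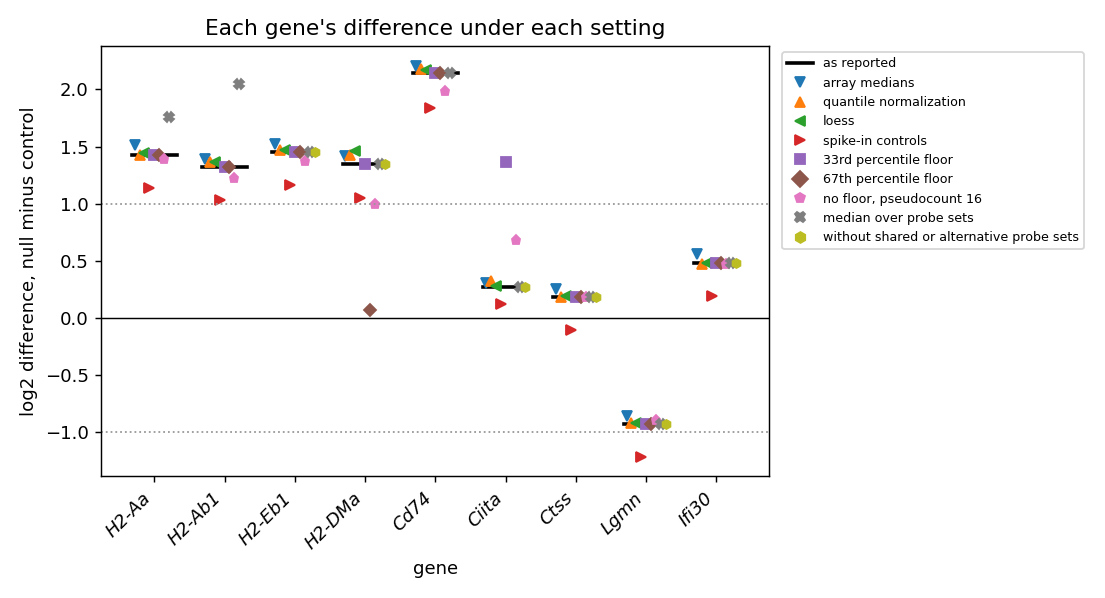
Log2 difference (null minus control) of each of the 9 measured genes as reported (black bars) and under up to 9 other settings of scaling, floor and probe set choice (symbols); dotted lines mark 2-fold. Cd74 lies between 1.84 and 2.21 throughout, H2-DMa is at 0.07 with the 67th percentile floor, and Ctss crosses 0 only with spike-in scaling.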

How the data were processed

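The authors deposited 1 signal intensity for each of 45101 probe sets on each array, on a linear scale. The submitters' processing notes name MAS5 and version 1 of Affymetrix Expression Console. The 2% trimmed mean was 150.0 on both arrays, so a difference in total RNA would not show. Detection calls and a genome build are not given in the sources used here. Arrays have no depth; their number limits the precision.

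Of 45037 non-control probe sets the platform annotation gives 1 gene to 34945, several to 932 and none to 9160; those with several or none were left unnamed. Intensities were floored at the 50th percentile and taken to log2, and each gene was read from its brightest probe set by mean log2 signal. The threshold was 2-fold. No test was run. Alternatives were 4 other scalings (loess with a span of 0.3 among them), floors at the 33rd and 67th percentile, a pseudocount of 16 without a floor, other probe set rules, thresholds of 1.5-fold and 3-fold, the mean in place of the median, and only genes above the floor on both arrays. Every member was named, and of each other gene list the 4 with the largest difference among those above the floor on both, with H2-Ea, H2-DMb2, the neighbours in the class II region and single markers added after their values were seen. Members and lists were chosen with earlier results of these data known. Python 3.11.15, pandas 2.3.3 and statsmodels 0.14.6 were used, and the scripts were tested on simulated data.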

Additional observations from a re-analysis of the deposited data

How the results depend on the processing

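The count of 5 genes at least 2-fold higher became 2 (of 6 measured) when probe sets marked as shared or alternative were left out, beside 7.68% of all measured genes. It was 1 (Cd74) with a 3-fold threshold, beside 2.97% of all measured genes. Under the other settings tried it was 4 to 6, beside 4.38% to 17.5% of all measured genes. The count of 0 lower genes became 1 (Lgmn) with spike-in scaling, beside 8.96% of all measured genes, and with a 1.5-fold threshold, beside 12.0%. The median difference of 1.32 was 0.90 with the 67th percentile floor, 0.84 with no floor and a pseudocount of 16, 0.38 without shared or alternative probe sets and 0.85 as a mean. The 3 class I genes past 2-fold became 1 with spike-in scaling, 8 with a 1.5-fold and 1 with a 3-fold threshold. The 2 other class II pathway genes became 1 with spike-in scaling, 0 without shared or alternative probe sets and 0 with a 3-fold threshold, and the count of 0 promoter and interferon-gamma genes became 1 with a 1.5-fold threshold. Fewer genes could be measured without the shared or alternative probe sets and with the higher floor; otherwise the cause was not tested. No paired analysis was possible because each genotype has 1 array. Dim genes (Ciita, Cd86, H2-DMa) are limited by signal over background.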
